A study of Mus musculus with 4 samples.

Results

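The cytosolic ribosomal protein genes were taken from the features by symbol, as Rpl or Rps followed by a digit or as Rplp0, Rplp1, Rplp2 and Rpsa, without symbols holding -ps and without the Rps6k kinases. The rule found 87 of 31253 genes. Of these, 77 were standard subunits, 8 were paralogs of another member, and 2 were not subunits: Rps19bp1, a binding protein, and the retrogene Rps23rg1. The symbols alone chose the members, and no measured value entered the rule.

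Mice labelled Ufl1 cKO, and mice labelled WT, received 100000 MC38 cells, a colon carcinoma line, under the skin at 8 weeks of age. Tumours were taken 16 days later, CD45+ cells were sorted, and single-cell RNA was read in 2 cKO and 2 WT libraries. The series title places the Ufl1 ablation in T cells, and the sources used here give no Cre driver, exon or mouse strain. Both genotypes share the tumour line and the sort, and nothing in the labels ties a library to its own mouse. The p-values of the genotype comparison thus reflect the spread between libraries, which may be technical. The edgeR fits between cell types took out library differences. Their p-values reflect the spread of summed cell types within the same 4 libraries and do not measure replication over mice.

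Nearly every ribosomal protein is present in a single copy per ribosome, and cells make the set in matched amounts. In mammals the messages begin with a run of pyrimidines, the terminal oligopyrimidine tract, through which nutrient and growth signals set their translation. UFL1 is the E3 enzyme of UFMylation, the attachment of UFM1, a relative of ubiquitin. Its best known substrate is the large-subunit protein RPL26 on ribosomes at the endoplasmic reticulum.

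The start regions of members whose levels are described below are shown because the pyrimidine tract is the feature these genes are known to share. In RefSeq (GRCm38.p6), 67 of the 87 members had an entry, and in 65.7% of these a run of at least 8 C or T bases on the coding strand touched the window between 20 bases before and 30 bases after an annotated start. The same held for 26.4% of all 27025 genes in that table. The letters ACTTCCG, searched on both strands of the 300 bases around each start, were present for 34.3% of members and 7.20% of all genes, AAGATGGC for 8.96% and 3.19%, and TATAAA for 10.4% and 15.7%. These are counts of letters, and annotated starts can lie off the true start. In the windows of 30 bases below, read 5′ to 3′ on the coding strand, the capitals mark the longest such run. At Rps27l they mark the first of runs of equal length.
Rpl26, chr11:68901579-68901608, plus strand: gcgtgtagTTCTCTTTCCTTTTgcggccat
Rps27l, chr9:66946053-66946082, plus strand: ccccgcctccaCTCCTCTCCactcctcccc
Rps27, chr3:90213632-90213661, minus strand: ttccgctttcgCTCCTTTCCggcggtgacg
Rpl22l1, chr3:28805499-28805528, plus strand: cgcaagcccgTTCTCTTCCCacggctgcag
Rpl22, chr4:152324413-152324442, plus strand: aatatcagcgctgCTTCTggaatgttccag
Rpl31, chr1:39367824-39367853, plus strand: ctcgccacaCCTCTTCCTCCTCgcctcccc
Rpl13a, chr7:45128722-45128751, minus strand: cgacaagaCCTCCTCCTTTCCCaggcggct
Rps9, chr7:3704024-3704053, plus strand: caaccgccttgTCTCTCTTTgtctcgggcc
The run was 14 bases long at Rpl26 and at Rpl13a, 13 at Rpl31 and 10 at Rpl22l1. It was 5 bases at the start shown for Rpl22, the partner of Rpl22l1. Rpl22 has 2 annotated starts, and the window shown lies upstream of its gene start in GENCODE M21, base 152325742. Rps27l also has 2 annotated starts, and its window ends before its GENCODE gene start, base 66946086. The windows of Rps9, Rpl22l1 and Rpl13a begin inside their GENCODE genes. The windows cannot show whether the Rpl22 or the Rps27l message begins with a tract.

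The libraries held 64141857 to 79747752 UMIs over 7352 to 9466 barcodes, and 24123 of 32396 filtered cells fell into a gate. Cells were gated into 12 types by counts of fixed marker genes that include no ribosomal protein gene. Of 38 further markers, 32 were highest in the type they belong to and 6 ranked the second there. The targeted gene was low everywhere: Ufl1 had 16.0 and 19.5 CPM (counts scaled to 1e+06 UMIs) in T cells of the cKO libraries, against 14.9 and 16.6 CPM in T cells of the WT libraries. The genotypes overlapped, and whether the reads cover the deleted part was not tested, so cKO and WT are used below as the labels give them. cKO replicate 2 stood apart in sex-linked transcripts, with 297 CPM of Xist and 0.151 CPM of Ddx3y, where the other libraries had at most 0.906 CPM and at least 47.4 CPM. It also shared 479 barcodes with WT replicate 1, against 85 to 104 in the other pairs. These 479 had a median of 760 UMIs in cKO replicate 2 and 17417 in WT replicate 1. In the other pairs such medians were 6252 to 8712 UMIs. Of the 479, 476 passed the filter in cKO replicate 2, and 129 were gated there. Without barcodes found in more than 1 library, no recomputed value changed its direction or its side of the threshold. The labels name a kit for the 3′ end, yet V and J segments carried 77.7% of T-cell receptor UMIs in T cells.

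On average over types, ribosomal protein messages made up a larger share of the UMIs in lymphoid than in myeloid cells. Treg cells were the exception and lay within the range of the myeloid types. Averaged over the 4 libraries, the share was 27.4% ± 2.39 in B cells, 25.7% ± 1.87 in CD8 T cells, 25.5% ± 1.65 in NK cells, 25.2% ± 3.11 in gamma-delta T cells and 22.5% ± 1.29 in conventional CD4 T cells (SD, n = 4 libraries). It was 19.1% ± 1.12 in cDC1, 18.6% ± 1.18 in cDC2, 18.4% ± 0.722 in Treg cells, 17.9% ± 1.44 in plasmacytoid DC, 17.0% ± 1.63 in macrophages, 15.4% ± 2.11 in migratory DC and 14.0% ± 1.14 in monocytes (SD, n = 4 libraries).

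**Figure D1:**
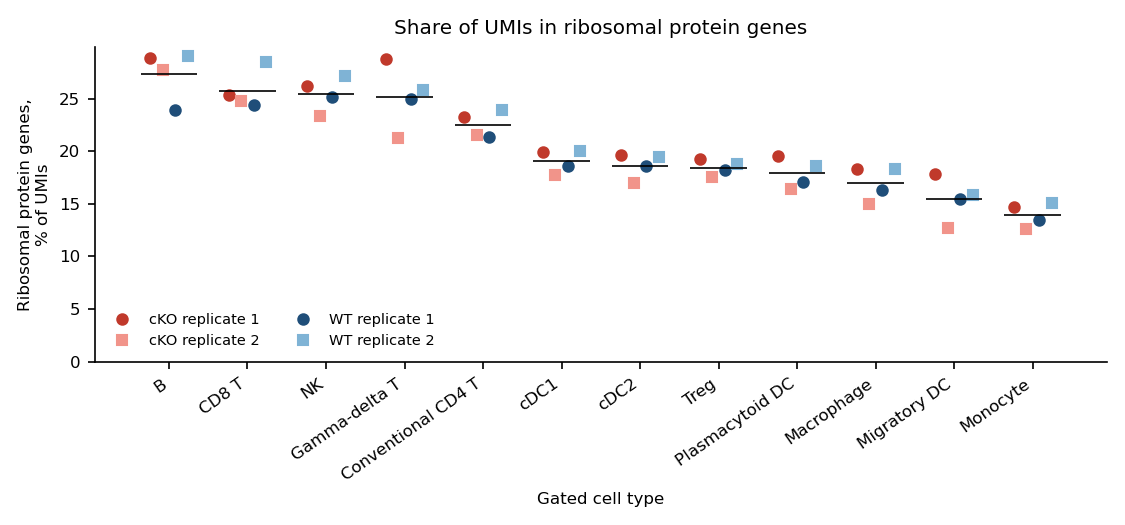
Share of UMIs in ribosomal protein genes (y axis, %) for each gated type and library, cKO libraries in red and WT libraries in blue, with the mean of 4 libraries as a line. B cells lay highest at 27.4% on average and monocytes lowest at 14.0%, and the red and blue points overlapped in all 12 types.

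The mean over 6 lymphoid types was 25.3% and 22.7% in the cKO libraries and 23.0% and 25.5% in the WT libraries. The mean over 5 myeloid types was 18.1% and 15.01% in the cKO libraries and 16.5% and 17.7% in the WT libraries. The lymphoid mean was thus higher in 4 of 4 libraries, by 7.30 ± 0.580 percentage points (SD, n = 4; exact sign-flip test, two-sided p = 0.125, the smallest that 4 libraries allow). B cells carried the fewest UMIs per cell, with library medians of 2966 to 3658, and cDC1 the most, with 11833 to 16228. Among cells of 4000 to 10000 UMIs, which leaves too few B cells and conventional or migratory DC, the difference was 7.03 points. That value compares the T-cell types and NK cells with macrophages and monocytes only. It is thus not a like measure to the 7.30 points, and the effect of depth on the same types was not tested.

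Neighbours in this order were not all distinct. B, CD8 T, NK and gamma-delta T cells changed places between libraries: B cells exceeded CD8 T cells by 1.64 ± 1.90 points in 3 of 4 libraries, and CD8 T cells exceeded NK cells by 0.277 ± 1.27 points in 2 of 4 (SD, n = 4; exact p = 0.25 and 0.75). Conventional CD4 T cells exceeded cDC1 by 3.45 ± 0.544 points in 4 of 4 libraries (exact p = 0.125). Macrophages were above migratory DC, and migratory DC above monocytes, in 4 of 4 libraries each.

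Treg cells, which restrain other T cells and were gated by Foxp3, lay apart from the remaining T cells. Their share was 19.2% and 17.5% in the cKO libraries and 18.2% and 18.8% in the WT libraries. Conventional CD4 T cells had 23.3% and 21.6% in the cKO libraries and 21.3% and 23.9% in the WT libraries. The ranges did not touch, and Treg cells were lower by 4.08 ± 0.868 points in 4 of 4 libraries (SD, n = 4; exact sign-flip p = 0.125). Over all T cells, cells with few ribosomal protein UMIs were most frequent in 1 library: the 10th percentile was 4.77% in cKO replicate 1, against 12.6% in cKO replicate 2 and 11.2% and 15.7% in the WT libraries. In Treg cells it was 2.69% and 8.50% in the cKO libraries and 4.44% and 5.18% in the WT libraries. In conventional CD4 T cells it was 4.54% and 13.2% in the cKO libraries and 12.5% and 16.0% in the WT libraries. Cell medians were 17.0% to 18.5% in Treg cells and 21.8% to 24.4% in conventional CD4 T cells. The part of such low cells in the Treg difference was not tested.

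The share also differed between states within a type. CD8 T cells with a UMI of Pdcd1, which encodes PD-1, had 24.6% ± 1.59, against 27.7% ± 2.91 in CD8 T cells without one, lower in 4 of 4 libraries (SD, n = 4; exact p = 0.125). The difference was -3.01 points over all such cells and -7.07 points among cells of 4000 to 10000 UMIs. T cells with at least 2 UMIs of cycling genes had 23.2% ± 1.89, against 25.4% ± 1.25 in T cells with 0 such UMIs, again lower in 4 of 4 libraries (SD, n = 4; exact p = 0.125), and cells with 1 were left out. This difference was -2.21 points, and -7.43 points within the same band. By the same gate, cycling macrophages had 18.2% ± 0.958 and macrophages without such UMIs 16.7% ± 1.74, higher in 4 of 4 libraries, and in 3 of 4 within the band (exact p = 0.125 and 0.25). Cycling differed by -0.66 points in NK cells, higher in 1 of 4 libraries, and by 0.34 points in monocytes, higher in 2 of 4 (exact p = 0.25 and 0.875). Within the band the NK difference was -8.44 points, higher in 0 of 4 (exact p = 0.125), and the monocyte difference -0.41 points, higher in 2 of 4 (exact p = 0.875). Cycling NK cells in the band had 14.5% and 12.3% in the cKO libraries and 12.1% and 25.3% in the WT libraries. Library medians were 15565 to 20269 UMIs in cycling NK cells and 11651 to 13709 UMIs in cycling T cells. These medians lay above the band, which thus keeps only the low-UMI part of such cells. Gates on a marker UMI also select for depth, and the part of depth outside the band of 4000 to 10000 UMIs was not tested.

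In edgeR's quasi-likelihood test on summed counts, scaled by TMM (edgeR's trimmed mean of M-values) and with Benjamini-Hochberg adjustment at 0.05, 65 of 83 tested members were higher in lymphoid than in myeloid types and 11 were lower. Of 9993 genes tested, 37.9% were called higher and 37.9% lower. The median log2 fold change was 0.23 over the members and 0.02 over all genes. These directions depend on the scaling: with total counts in place of TMM, an alternative added after the data were seen, all genes shifted by a median of 0.32, and 77 members were called higher (54.6% of all genes) and 2 lower (25.2% of all genes). The 11 lower calls included 7 standard subunits under TMM, and the 2 under total counts were Rps27l and Rpl7l1. The medians were then 0.54 over the members and 0.33 over all genes. Members were called lower in 79 of 83 cases in Treg cells against the other types (18.7% of all genes), in 72 of 83 in monocytes (34.1% of all genes) and in 69 of 83 in plasmacytoid DC (21.6% of all genes). They were called higher in 72 of 83 cases in B cells (26.7% of all genes) and in 67 of 83 in CD8 T cells (32.5% of all genes). Some types did not follow the lineage difference under TMM. Conventional CD4 T cells had 18 members called higher (25% of all genes) and 15 lower (21.3% of all genes). In cDC1 26 were higher (26.6% of all genes) and 7 lower (18.3%). In cDC2 21 were higher (28.2% of all genes) and 8 lower (19.2%). Under total counts the lower calls numbered 38 in Treg cells (8.02% of all genes), 80 in monocytes (47% of all genes) and 56 in plasmacytoid DC (16.3% of all genes), and the higher calls 72 in B cells (26% of all genes) and 77 in CD8 T cells (44% of all genes). With that scaling conventional CD4 T cells had 53 higher (35.4% of all genes) and 5 lower (13.1%). In cDC1 11 were then higher (20.9% of all genes) and 31 lower (26.1%), and in cDC2 7 (20.8%) and 41 (33.2%). The members share the level of the set, so these counts are not independent of one another.

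The make-up of the ribosomal protein message also differed between the lineages. When each count was set against the summed member counts of its sample, 36 of 83 members were higher in lymphoid types and 30 lower, against 26.9% and 47.8% of all genes in the same fit. Counted in either direction, 66 of 83 members (79.5%) were called, near the 74.7% of all genes. Division by the member total holds the members around 0, so the shares of all genes by direction are not a like measure. In UMIs per 1000 member UMIs, 37 members were higher in lymphoid types in 4 of 4 libraries and 33 lower in 4 of 4. The lymphoid and myeloid ranges were apart in 26 of 83 members. These counts have no share of all genes beside them. Most shifts were small, and a few members stood out at either end.

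**Figure D2:**
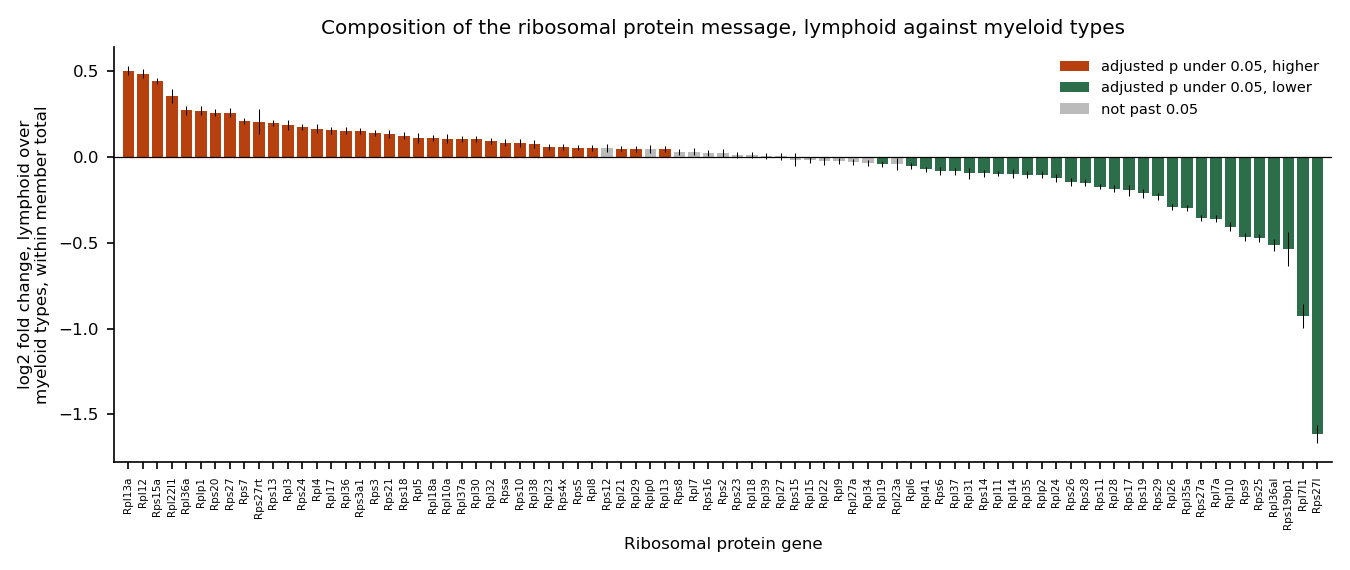
Log2 fold change of each tested member, lymphoid over myeloid types, after division by the summed member counts (bars, with the standard error; orange and green mark adjusted p under 0.05). Rpl13a, Rpl12 and Rps15a lead on the left at 0.50 to 0.44, and Rps27l ends on the right at -1.61.

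The members highest in lymphoid types were Rpl13a, whose product is known in human cells to act outside the ribosome as well, Rpl12, for a protein at the base of the ribosomal stalk, and the small-subunit protein gene Rps15a. Rpl13a had 3.79 and 3.00 UMIs per 1000 member UMIs in lymphoid types of the cKO libraries and 3.25 and 3.11 in those of the WT libraries. In myeloid types it had 2.64 and 2.12 in the cKO libraries and 2.22 and 2.29 in the WT libraries. The 4 lymphoid values all lay above the 4 myeloid values, with a log2 fold change of 0.50 ± 0.03 (SE; edgeR adjusted p = 9.04e-21).
Rps15a averaged 20.9 ± 0.700 UMIs per 1000 member UMIs in lymphoid types and 15.4 ± 0.597 in myeloid types (SD, n = 4 libraries), and Rpl12 averaged 6.56 ± 0.550 and 4.74 ± 0.501. The ranges of both genes were apart, and their log2 fold changes were 0.44 and 0.48. The paralog Rpl22l1 followed at 0.35, then Rpl36a and the stalk protein gene Rplp1, each at 0.27.

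Of the 30 members lower in lymphoid types relative to the member total, 26 were standard subunits. The other 4, the paralogs Rps27l, Rpl7l1 and Rpl36al and the binding protein gene Rps19bp1, were at -1.61, -0.93, -0.51 and -0.54. Rps9, a small-subunit protein gene, averaged 16.6 ± 0.765 UMIs per 1000 member UMIs in lymphoid types and 23.0 ± 1.36 in myeloid types (SD, n = 4 libraries). Its groups did not overlap, and the log2 fold change was -0.47 ± 0.02 (SE; edgeR adjusted p = 4.34e-23). Rps25, which is known to be needed for initiation at some internal ribosome entry sites, was at -0.47 as well, and Rpl10, an X-linked gene for a large-subunit protein near the catalytic centre, at -0.41. Rps27a, whose product is a fusion of ubiquitin with a small-subunit protein, was at -0.35.

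The proteins of the stalk and its neighbourhood moved by different amounts. Relative to the member total, lymphoid against myeloid, Rplp1 was at 0.27, Rplp0 at 0.05 (adjusted p = 0.0698) and Rplp2 at -0.10, although RPLP1 and RPLP2 pair on the stalk that RPLP0 anchors. Rpsa, which encodes a small-subunit protein also known as the laminin receptor, was at 0.08. Besides Rpl10, the X-linked members were Rps4x at 0.06, Rpl36a at 0.27 and Rpl39 at 0.01, where Rpl39 did not pass the test (adjusted p = 0.825).

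The ratio of a paralog to its partner varied between types. Rpl22l1, an RNA-binding paralog that Rpl22 is known to repress, gave 53.4% ± 8.19 of the UMIs of Rpl22 in plasmacytoid DC, which belong to neither lineage group here, 50.9% ± 2.01 in NK cells, 43.2% ± 7.30 in CD8 T cells and 24.5% ± 2.59 in cDC1 (SD, n = 4 libraries). Relative to the member total it was higher in lymphoid types at a log2 fold change of 0.35, with Rpl22 at -0.02. The Rpl22l1 call was lost among cells of 4000 to 10000 UMIs, where the value was 0.08 (adjusted p = 0.312). Rpl36al was at 79.5% ± 8.53 of Rpl36a in monocytes, 66.9% ± 9.09 in plasmacytoid DC and 29.7% ± 3.01 in B cells. Between lymphoid and myeloid types, relative to the member total, Rpl36al was at -0.51 and Rpl36a at 0.27. Rpl7l1, a paralog known for a role in building the large subunit, gave 6.24% ± 0.639 of Rpl7 in macrophages and 2.25% ± 0.430 in conventional CD4 T cells.

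The testis paralog Rpl10l and the retrogene Rps23rg1 had 0 UMIs in every library. Rpl39l, another paralog best known from testis, had 210 UMIs in all filtered cells, and the striated-muscle paralog Rpl3l had 557. In T cells, Rpl39l had 4 and 49 UMIs in the cKO libraries and 0 and 3 in the WT libraries, so that 1 library held nearly all of them.

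Single members marked single cell types. Rps27l, the paralog of Rps27 that p53 is known to induce, had 1226 and 1026 CPM in migratory DC of the cKO libraries and 816 and 1155 CPM in those of the WT libraries. In the other 11 types its mean lay between 112 CPM in conventional CD4 T cells and 336 CPM in cDC1. Relative to the member total, it was higher in migratory DC than in the other types by 2.89 ± 0.08 on the log2 scale (SE; edgeR adjusted p = 5.70e-32), and it reached 50.03% ± 7.32 of Rps27 there. Migratory DC are 1 of the 5 myeloid types behind the lymphoid and myeloid difference of Rps27l, while in monocytes and cDC2 its mean of 196 CPM was near the 194 CPM of CD8 T cells.

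Rpl31, a large-subunit protein gene at the rim of the exit tunnel, was the mark of plasmacytoid DC. It had 1734 and 1165 CPM there in the cKO libraries and 1263 and 1663 CPM in the WT libraries, against means of 347 to 715 CPM in the other types. Relative to the member total this was 1.68 ± 0.05 on the log2 scale against the other types (SE; edgeR adjusted p = 1.17e-30). All 4 plasmacytoid DC values lay above every value of the next type, NK cells, which reached 794 CPM.

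Rps27 led in B cells, with 6195 and 4056 CPM in the cKO libraries and 3645 and 4828 CPM in the WT libraries, and a relative log2 difference of 0.83 ± 0.04 (SE; edgeR adjusted p = 5.46e-21). Rps19, the gene most often mutated in human Diamond-Blackfan anaemia, was raised in migratory DC at 1.09 ± 0.04 (SE; edgeR adjusted p = 1.84e-26). Its 4693 CPM there compared with 2001 CPM in plasmacytoid DC, where it was among the 3 lowest members relative to the total. In CD8 T cells the largest standard member was Rps15a at 0.40, in conventional CD4 T cells Rpl13a at 0.53, in cDC1 Rpl14 at 0.52 and in monocytes Rpl12 at -0.64.

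**Figure D3:**
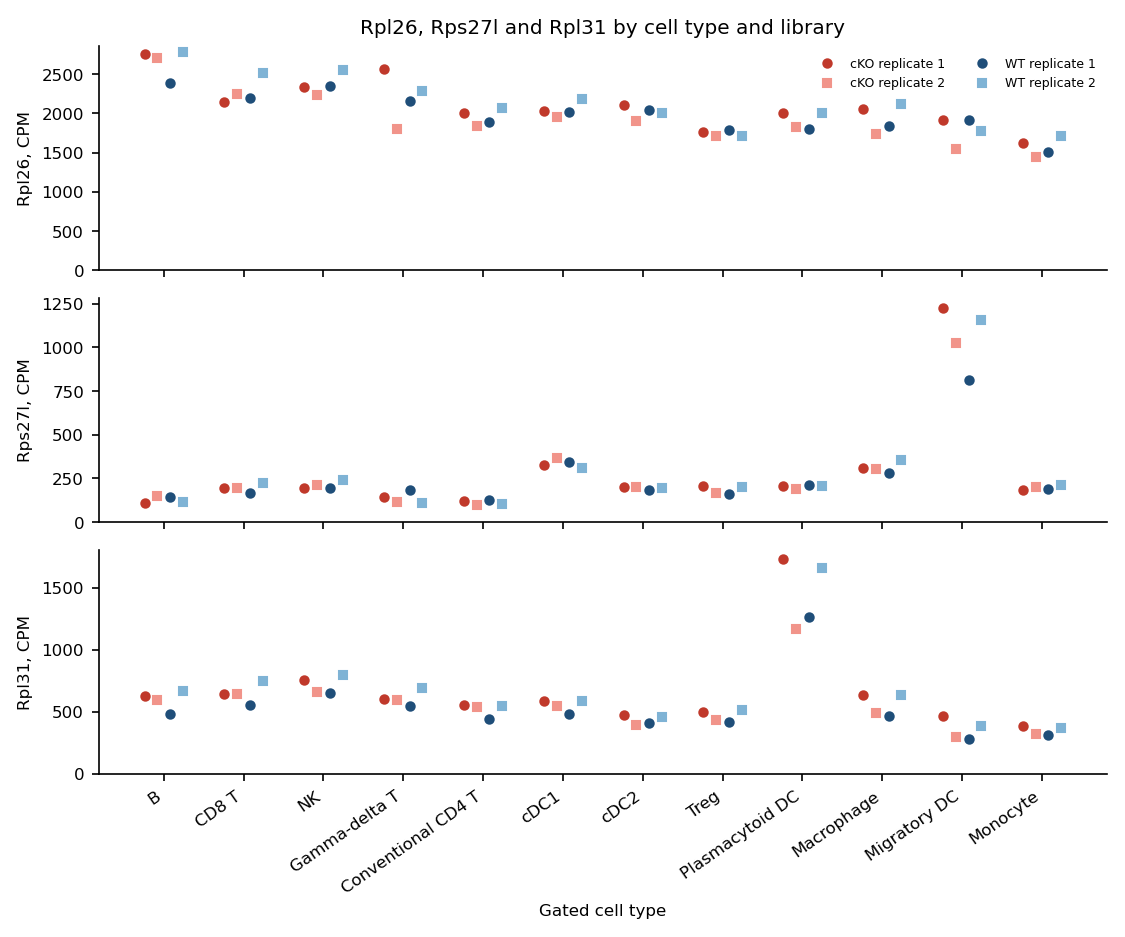
CPM of Rpl26, Rps27l and Rpl31 (y axes, from 0) in each gated type and library, cKO in red and WT in blue. Rps27l stands out in migratory DC, where it reached 1226 CPM, and Rpl31 in plasmacytoid DC at up to 1734 CPM, while Rpl26 varied between mean levels of 1572 and 2658 CPM.

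Rpl26 lies on chromosome 11 (GENCODE M21, GRCm38, chr11:68901583-68906989, plus strand), and the gene ID given by the files is ENSMUSG00000060938. Its mean level was 2658 CPM in B cells, 2370 CPM in NK cells and 2278 CPM in CD8 T cells, and 1572 CPM in monocytes, the lowest type. As a part of the ribosomal protein message, Rpl26 ran the other way: it made up 8.94 and 9.21 of 1000 member UMIs in lymphoid types of the cKO libraries and 9.30 and 9.08 in the WT libraries, against 10.8 and 11.5 in myeloid types of the cKO libraries and 11.4 and 11.1 in the WT libraries. The ranges were apart, and the log2 fold change was -0.29 ± 0.02 (SE; edgeR adjusted p = 4.52e-18). Against all genes, the direction of Rpl26 depended on the scaling. Its plain CPM averaged 2202 ± 108 in lymphoid types and 1874 ± 111 in myeloid types (SD, n = 4 libraries), higher in 4 of 4, and the fit scaled by total counts gave 0.23 ± 0.03 (SE; edgeR adjusted p = 5.42e-10). The TMM-scaled fit gave -0.09 ± 0.03 (SE; edgeR adjusted p = 0.0167), a call that was lost with RLE size factors, with DESeq2 and without cKO replicate 1, WT replicate 1 or WT replicate 2.

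The genotype comparison asked whether these messages differed between libraries labelled cKO and WT. No member was called in T cells, in any of the 12 types or in all myeloid cells by edgeR's test, and DESeq2 called none in T cells. In T cells 0% of 11438 genes were called, so the members did not differ from the background in this. At an unadjusted p under 0.05, 1 of 83 members passed in T cells, against 310 of 11438 genes. Genes called in conventional CD4 T cells and plasmacytoid DC made up 0.111% and 0.0131% of those tested, with no member among them.

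The share of UMIs in T cells was 23.96% ± 0.893 in cKO and 25.3% ± 1.93 in WT (SD, n = 2 each). In size, the difference of -1.34 points was above the cKO SD and below the WT SD (exact permutation test, two-sided p = 0.667; 2 against 2 cannot go below 0.333), and it was 0.0243 without WT replicate 2. In all 12 types the genotypes overlapped. cKO replicate 2 was the lowest library in 9 types and WT replicate 1 in 3, while cKO replicate 1 and WT replicate 2 were the highest in 6 each.

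Rpl26, the UFM1 target, had 2109 and 2050 normalised CPM in T cells of the cKO libraries and 2127 and 2484 in T cells of the WT libraries (scaled by TMM). The cKO values lay just under the WT values. The log2 fold change was -0.15 ± 0.13 (SE; edgeR adjusted p = 0.999), and over the 12 types it ran between -0.18 in CD8 T cells and 0.15 in B cells, with none past the threshold. In T cells the median over the 77 standard subunits was -0.16. As a share of subunit UMIs, Rpl26 overlapped between genotypes. Its log2 deviations from the mean of the 4 libraries were -0.03 and 0.03 in cKO and 0.01 and -0.01 in WT. The effect on Rpl26 in T cells minus that in myeloid cells was -0.09 ± 0.14 (SE; edgeR adjusted p = 1).

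Across the set, 69 of 83 members had a value below 0 in T cells, with a median log2 fold change of -0.16 against 0.01 over all genes. Under total counts 65 of 83 were below 0, with medians of -0.09 and 0.08. In 39 of 83 members the cKO and WT values did not overlap, against 31.9% of all genes. The smallest p-values among lower values belonged to Rps2, Rps4x and Rpl8, a set of small- and large-subunit protein genes. Rps2 had 4059 and 4333 normalised CPM in the cKO libraries and 4924 and 5425 in the WT libraries, a log2 fold change of -0.30 ± 0.13 (SE; edgeR adjusted p = 0.999). Rps4x was at -0.27 and Rpl8 at -0.25. B cells went the other way, with 80 of 83 members above 0 and a median of 0.14, again with none past the threshold.

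The genotype values in T cells ran along the length of the coding sequence. All 9 standard subunits with at most 300 coding bases (a limit chosen after the values were seen) lay above 0: Rpl37, Rpl37a, Rpl38, Rpl39, Rpl41, Rps21, Rps27, Rps28 and Rps29. Of the 68 longer ones, 3 did. The median log2 fold change was 0.12 over the short and -0.17 over the longer subunits.

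**Figure D4:**
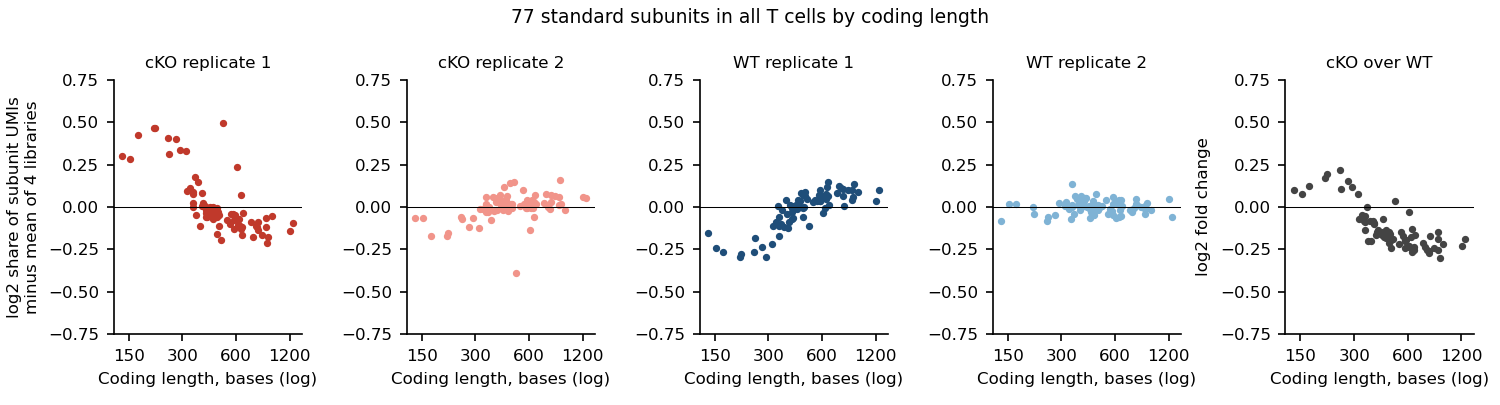
The 77 standard subunits in T cells by coding length (x axis, bases, log scale). The left 4 panels give each library's log2 share of the subunit UMIs minus the mean of the 4 libraries, and the right panel the log2 fold change of cKO over WT. Short subunits lie at a median of 0.40 in cKO replicate 1 and -0.26 in WT replicate 1, and close to 0 in the other libraries.

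The 9 short subunits held 12.0% and 8.78% of the standard-subunit UMIs of T cells in the cKO libraries and 7.99% and 9.16% in the WT libraries. cKO replicate 1 was the highest and WT replicate 1 the lowest in all 12 types, B cells, monocytes and macrophages included, and cKO replicate 2 lay below WT replicate 2 in T cells. Across the 77 subunits in T cells, the deviation of a library from the mean of the 4 correlated with log2 coding length at r = -0.74 in cKO replicate 1, 0.44 in cKO replicate 2, 0.82 in WT replicate 1 and 0.07 in WT replicate 2. These r values describe genes of shared libraries, and the 4 deviations of a gene sum to 0. Rps10, with 507 coding bases, left the pattern at 0.50 in cKO replicate 1 and -0.39 in cKO replicate 2. The part of fragment size or of the library in the genotype values was not tested.

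The members with the highest values in T cells were of this short class: Rps21 at 0.22, Rpl38 at 0.20, Rps28 at 0.17 and Rpl37a at 0.16. Rps21 had 2269 and 1534 normalised CPM in the cKO libraries and 1395 and 1877 in the WT libraries, and its adjusted p was 0.999 by edgeR. The genotypes overlapped, with both extremes held by the replicates numbered 1.

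Rps27rt, a copy of Rps27 on chromosome 9 whose coding sequence has the same 252 bases in length, separated 1 library from the other 3. In T cells it had 8.72 and 41.1 normalised CPM in the cKO libraries and 37.7 and 58.3 in the WT libraries. cKO replicate 1 was the lowest in all 12 types, at 3.601 to 16.5 CPM, where the other libraries had 19.3 to 113 CPM, a median ratio of 5.63. The same library had the highest Rps27 in all 12 types, at 6195 CPM in B cells. Reads of near-identical copies can be split by the counting, so the level of Rps27rt is uncertain. The log2 fold change in T cells was -0.91 ± 0.58 (SE; edgeR adjusted p = 0.999), and it became -2.47 without cKO replicate 2 (adjusted p = 0.00546). In that fit cKO replicate 1 stands alone and is assumed to vary like the WT libraries.

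**Figure D5:**
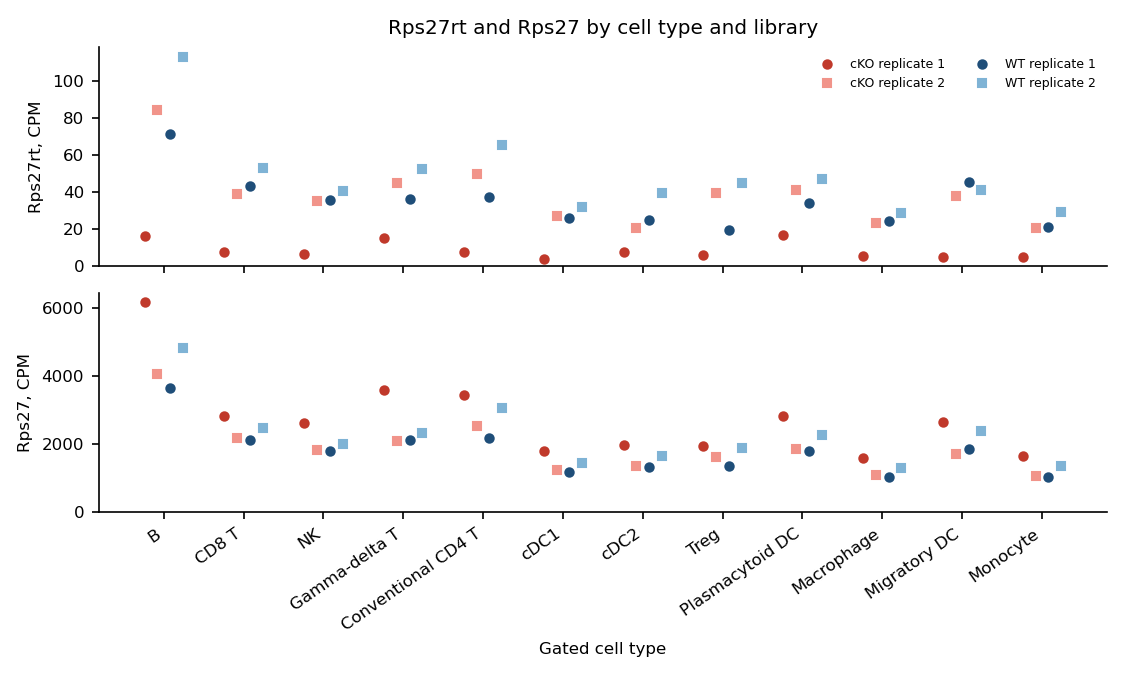
CPM of Rps27rt and Rps27 (y axes, from 0) in each gated type and library, cKO in red and WT in blue. Rps27rt lies at 16.5 CPM or less in cKO replicate 1 in all 12 types, and at 19.3 CPM or more in the other libraries.

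Genes that work beside the ribosomal proteins were read in the same fits. None of 16 elongation and other pyrimidine-tract factors, 20 ribosome biogenesis genes, 78 mitochondrial ribosomal protein genes, 7 tested genes of UFM1 conjugation or 10 genes of ribosome quality control and the translocon passed in T cells. Ribosome biogenesis genes had a median log2 fold change of -0.21 there, with 19 of 20 below 0 (15 of 20 under total counts), and the pyrimidine-tract factors -0.17, with 15 of 16 below 0 under both scalings. Under total counts the medians were -0.14 and -0.11, against 0.08 over all genes. Between lymphoid and myeloid types, 14 of 20 biogenesis genes were called higher and 1 lower, with a median of 0.63, and 13 of 16 pyrimidine-tract factors were called higher and 1 lower. Under total counts these became 19 higher and 1 lower, and 16 higher and 0 lower. Of all genes, 37.9% were called higher and 37.9% lower under TMM, and 54.6% and 25.2% under total counts. Mitochondrial ribosomal protein genes had no direction that held under both scalings: 10 of 77 were called higher and 43 lower under TMM, with a median of -0.20, and 38 higher and 15 lower under total counts, with a median of 0.12. Both medians lay below those of all genes.

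Of 7 UFM1 conjugation genes, 1 was called higher and 6 lower in lymphoid types under TMM, and 1 higher and 3 lower under total counts. The shares of all genes were 37.9% higher and 37.9% lower under TMM, and 54.6% and 25.2% under total counts. Ufsp2, Ufm1 and Ufc1 were lower under both. Under TMM Ufsp2, which encodes a protease that removes UFM1, was at -1.16 ± 0.10, Ufm1 at -0.59 ± 0.06 and Ufc1, the conjugating enzyme, at -0.45 ± 0.04 (SE), and under total counts they were at -0.85, -0.27 and -0.13. Ddrgk1, the adaptor that brings UFL1 to the membrane, was higher at 0.28 ± 0.06 and 0.60 ± 0.06. Ufl1 itself was at -0.22 ± 0.10 under TMM (SE; edgeR adjusted p = 0.0387) and at 0.09 ± 0.09 under total counts (adjusted p = 0.361), so its sign turned. In T cells, cKO against WT, Ufl1 was at 0.10 ± 0.18 and Ufsp2 at 0.27 ± 0.17, with an adjusted p of 0.999 for both by edgeR. Among translocon genes, Sec61b at -0.68 and Sec61g at -0.58 were lower in lymphoid types and Sec62 at 0.66 was higher, and all 3 were called in the same direction under total counts.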

How the data were processed

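The authors deposited a matrix of unnormalised UMI counts for each of 4 libraries, written by Cell Ranger 6.1.1 per the file headers. CASAVA 1.8 and Seurat stand in the submitters' processing notes as well. A genome build was not given in the sources used here; GENCODE M21 holds 31107 of 31253 feature IDs. A barcode needed 300 genes and no more than 15% mitochondrial UMIs, and 405 of 32801 were dropped. Marker counts gated 12 types with at least 20 cells in each library; 33 cells that passed more than 1 gate were left out, and no other doublet treatment was applied. T cells (4602) hold every gated T cell and those of no subtype.

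Counts were summed per type and library and fitted with edgeR (filter on low counts, TMM, quasi-likelihood, Benjamini-Hochberg adjustment at 0.05 over all genes tested); type fits held library as a term. A fit relative to the member total used the summed member counts as library size. Shares were tested by exact permutation or sign-flip tests. The steps were tested on simulated data. Alternatives were DESeq2, RLE size factors, total-count scaling, no low-count filter, stricter cells and gates, 4000 to 10000 UMIs per cell, each library left out and a replicate block. The members and gene lists were chosen with earlier results of these data known, and the named members follow a rule on size and rank within each fit. Counts cover counting error only; UMIs mark 1 molecule each and are not divided by length.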

Additional observations from a re-analysis of the deposited data

Results flagged for a closer look

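Rpl9-ps1, 1 of 8 rows with -ps symbols that the members leave out, had 14 UMIs over all filtered cells, 5 and 4 in the cKO libraries and 2 and 3 in the WT libraries. It was singled out because both cKO values in CPM, 0.0699 and 0.0502, lay above both WT values, 0.0312 and 0.039. At these counts no difference was detectable.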

How the results depend on the processing

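Each named result was recomputed under every alternative that could be fitted, 143 of 155 values keeping their direction and their side of the threshold. The T-cell share difference, cKO minus WT, ran from -2.70 to 0.0243 points when 1 library was left out, and its sign turned at 0.0243 without WT replicate 2; the cause was not tested. The number of members called in T cells was 2 without the low-count filter, Rps27rt at -0.91 and Rpl39l at 3.78, the second a gene with 4 and 49 UMIs in the cKO libraries and 0 and 3 in the WT libraries. It ran from 0 to 1 with 1 library left out, the call being Rps27rt without cKO replicate 2, where the cKO arm is 1 library, and was 0 under the other alternatives. Rpl26 in T cells ran from -0.28 to -0.04 with 1 library left out. Between lymphoid and myeloid types, 73 to 75 members were called with 1 library left out, and 57 to 64 relative to the member total. With TMM, Rpl26 between these types was -0.09 and turned to 0.0018 under stricter gates (adjusted p = 0.995), which also leave too few gamma-delta T cells and cDC1. It was -0.03 with DESeq2 and with RLE size factors, and turned to 0.23 with total-count scaling, as Rpl36al did to 0.00731 (adjusted p = 0.942) from -0.31. Relative to the member total Rpl26 stayed between -0.30 and -0.28 with 1 library left out. Total-count scaling, chosen after seeing the data, called 79 members between lymphoid and myeloid types and 0 in T cells, and shifted the median of all genes by 0.32 and 0.07. RLE shifted the median of all genes by 0.05 between lymphoid and myeloid types and by -0.01 between genotypes.

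Both genotypes carry the replicate numbers 1 and 2. The numbers are not shown to pair libraries (correlation of the deviations in T cells 0.158 over 11438 genes, 2 pairs). With the replicate number as a block, no member was called, Rpl26 was at -0.14, and the share difference was -1.34 points (exact p = 1). With 2 libraries per genotype, no permutation test on shares could pass 0.05.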

Other observations

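The other rows with -ps symbols, which share sequence with a member, were read as values. Rpl9-ps6 had 17176 UMIs, 1.799% of those of Rpl9, at 49.0 and 56.1 CPM in the cKO libraries and 44.1 and 82.9 CPM in the WT libraries. Rpl10-ps3 had 2056 UMIs, Rps18-ps6 1251, Rpl36a-ps1 592, Rps18-ps5 134 and Rps18-ps4 75, and Rpl36-ps4 had 0. Rps18-ps6 was at 2.79 and 3.78 CPM in the cKO libraries and 3.93 and 6.47 CPM in the WT libraries, without overlap. Neither was tested as a member.

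The ratio of large-subunit to small-subunit UMIs varied by type as well. Over the 4 libraries it was 1.31 ± 0.0169 in macrophages, 1.30 ± 0.0220 in NK cells and 1.29 ± 0.0139 in monocytes, and 1.17 ± 0.0146 in B cells, the lowest type (SD, n = 4). In T cells it was 1.24 ± 0.0207.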
